A study of Mus musculus with 6 samples.

Results

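The 9 genes described here serve salt reabsorption in the thick ascending limb of the loop of Henle and in the distal convoluted tubule, the neighbouring nephron segments downstream of the proximal tubule. They were chosen by symbol for that role, by a rule that uses no measured value, though with earlier results of these data known: Umod, Slc12a1, Kcnj1, Slc12a3, Pvalb, Trpm6, Wnk1, Wnk4 and Stk39, 9 of 57132 gene rows, all matched to 1 Ensembl identifier each. All 9 were among the 19927 genes with enough counts to be tested. RNA sequencing was carried out on glomeruli isolated from 6 mouse samples with diabetic kidney disease. Both groups carried floxed Setdb2 alleles (Setdb2fl/fl), and they differed in Cre recombinase: 3 samples were Cre-/Setdb2fl/fl (Cre_negative) and 3 were Cre+/Setdb2fl/fl (Cre_positive). The series' text speaks of SETDB2 of podocytes, the epithelial cells of the glomerular filter, and the sources used here do not give the driver of the Cre, the model of diabetes, or the mice's age and sex.

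The thick ascending limb takes up sodium chloride through the cotransporter NKCC2, encoded by Slc12a1, while the potassium channel ROMK, encoded by Kcnj1, returns potassium to the lumen so that the cotransporter can keep turning. The same cells make uromodulin, the most abundant protein of normal urine, encoded by Umod. The distal convoluted tubule takes up sodium chloride through the thiazide-sensitive cotransporter NCC, encoded by Slc12a3, and magnesium through the channel TRPM6. WNK kinases, here Wnk1 and Wnk4, phosphorylate the kinase SPAK, encoded by Stk39, and SPAK phosphorylates and activates both cotransporters. Counts of RNA do not measure that phosphorylation.

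The libraries held 53571438 to 58807042 counts. Setdb2, the targeted gene, had 370 to 591 counts in Cre_negative and 391 to 444 in Cre_positive libraries, a log2 fold change of -0.12 (95% confidence interval -0.52 to 0.28, adjusted p = 0.738), so the gene-level counts did not show the deletion. Xist, the RNA of the inactive X chromosome, had 24 counts in Cre_positive replicate 2 and 36474 to 47632 in the other libraries. Cre_positive replicate 2 may therefore differ from the others in sex, which the sources used here do not give. Each result is also given without that library where leaving it out changes a call. All 6 podocyte markers were detected in all 6 libraries, with a summed level of 443 to 725 CPM (counts scaled to a common library size with normalisation factors). Markers of the thick ascending limb summed to 4316 to 7643 CPM and those of the distal convoluted tubule to 1522 to 2580 CPM, so RNA of both segments was present in the isolates labelled as glomeruli. These sums hold Umod, Slc12a1, Kcnj1, Slc12a3, Pvalb and Trpm6 themselves. In such bulk samples a change in the share of cells of a type and a change in RNA per cell cannot be told apart. Nothing in the labels says that the replicates are separate mice, so the p-values rest on the spread among these samples, part of which may be technical.

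Umod and Slc12a3 were higher in the Cre_positive libraries. They were the 2 of 9 genes to pass edgeR's quasi-likelihood test at an adjusted p of 0.05. None of the 9 passed as lower. Of all genes tested, 3.73% passed as higher and 3.82% as lower, so 2 of 9 is more than that share but rests on few genes. The median log2 fold change of the 9 was 0.11, beside -0.00089 over all genes tested. The genotypes did not overlap for 3 of the 9 (Umod, Slc12a3 and Wnk4), all higher in Cre_positive, where 15.2% of all genes tested lay apart as higher and 14.5% as lower. The plot of CPM by library shows all 9.

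**Figure D1:**
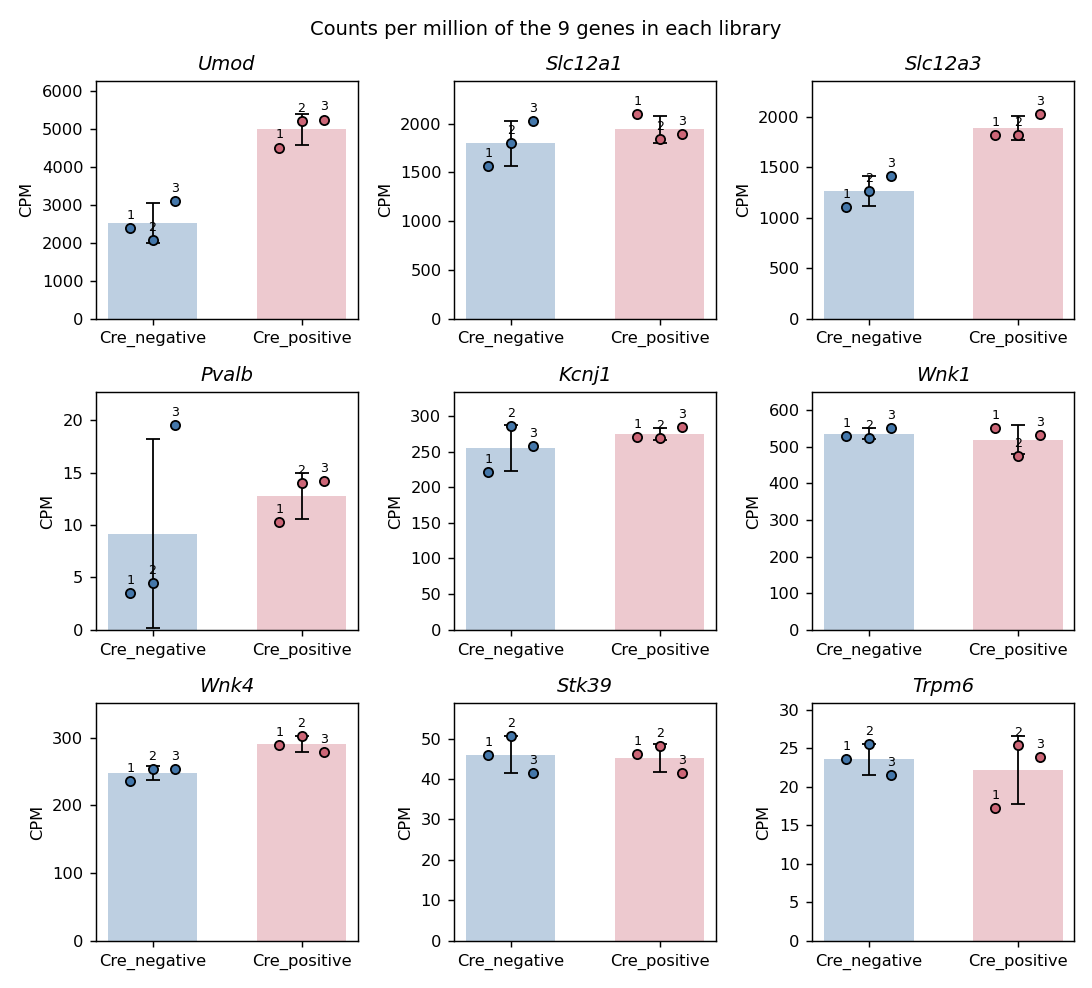
CPM (y axis, from 0) of the 9 genes in each library, with replicate numbers beside the points, bars at the mean of 3 libraries and error bars of 1 SD. The 3 Cre_positive libraries lie above the 3 Cre_negative ones for Umod, Slc12a3 and Wnk4. Pvalb is spread from 3.54 to 19.5 CPM within Cre_negative.

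The promoters of the genes that rose, Umod and Slc12a3, are shown beside that of Slc12a1, which marks the same segment as Umod and did not pass, so that their windows can be compared. The sequences are RefSeq's on GRCm38.p6, another build than the GRCm39 of the submitters' processing notes, and run from 250 bases before to 50 bases after the annotated start on the gene's own strand. Umod is at chr7:119479213-119479512 (minus strand), Slc12a3 at chr8:94328958-94329257 (plus strand) and Slc12a1 at chr2:125152350-125152649 (plus strand). Capitals mark TATAAA, the TATA box, on either strand.
Umod: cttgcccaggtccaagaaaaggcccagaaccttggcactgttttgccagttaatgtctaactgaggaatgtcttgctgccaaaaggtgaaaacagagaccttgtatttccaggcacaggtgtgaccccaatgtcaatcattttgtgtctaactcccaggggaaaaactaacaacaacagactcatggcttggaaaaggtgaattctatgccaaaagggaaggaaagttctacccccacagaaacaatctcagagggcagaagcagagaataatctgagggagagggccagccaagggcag
Slc12a3: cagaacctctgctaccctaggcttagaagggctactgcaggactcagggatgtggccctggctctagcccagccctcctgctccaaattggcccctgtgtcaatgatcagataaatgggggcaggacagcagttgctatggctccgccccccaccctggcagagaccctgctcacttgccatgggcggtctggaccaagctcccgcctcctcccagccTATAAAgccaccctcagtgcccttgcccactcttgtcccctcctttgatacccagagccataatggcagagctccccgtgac
Slc12a1: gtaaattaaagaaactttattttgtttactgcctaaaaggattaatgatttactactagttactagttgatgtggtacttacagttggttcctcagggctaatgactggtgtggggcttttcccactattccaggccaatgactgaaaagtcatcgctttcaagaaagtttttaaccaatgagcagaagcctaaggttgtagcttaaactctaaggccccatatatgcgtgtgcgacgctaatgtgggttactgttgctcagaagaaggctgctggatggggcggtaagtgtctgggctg

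The Slc12a3 window held TATAAA once, starting 32 bases before the start site, and the windows of Umod and Slc12a1 did not hold it. Over 32851 RefSeq promoter windows of this length, 13.6% held TATAAA on either strand, so it is not rare. The oestrogen-related receptor site TCAAGGTCA (in 0.423% of windows) and the palindromic site of the glucocorticoid and mineralocorticoid receptors (in 0.00913%) were in none of the 3 windows. With 1 match in all, no matches overlapped. The Umod window held 0 CpG dinucleotides, that of Slc12a3 held 4 and that of Slc12a1 held 5, against a median of 7 over all windows. These are letters in a window and not measured binding.

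Umod (ENSMUSG00000030963, chromosome 7) stood at 2381, 2066 and 3106 CPM in Cre_negative replicates 1, 2 and 3 and at 4509, 5198 and 5247 CPM in the Cre_positive ones. The lowest Cre_positive library was above the highest Cre_negative one, which was replicate 3. The means were 2518 ± 533 and 4984 ± 413 CPM (SD, n = 3). This is 0.99 on the log2 scale (SE 0.15), or 1.98-fold with a 95% confidence interval of 1.56 to 2.52 (adjusted p = 0.00768). The call held with each library left out, with adjusted p from 0.00162 to 0.0472. Without Cre_positive replicate 2 the log2 fold change was 0.95 (adjusted p = 0.0416).

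Slc12a1 (ENSMUSG00000027202, chromosome 2), the cotransporter gene of the cells that make uromodulin, stood at 1568, 1803 and 2024 CPM in Cre_negative and at 2101, 1838 and 1890 CPM in Cre_positive replicates 1, 2 and 3. The ranges overlapped. The log2 fold change was 0.11 (SE 0.11, 95% confidence interval -0.15 to 0.37, adjusted p = 0.614), so the interval reached from 0.904-fold to 1.29-fold. Kcnj1 (ENSMUSG00000041248, chromosome 9), the channel that works beside it, stood at 221.8, 285.9 and 257.8 CPM in Cre_negative and at 270.4, 269.0 and 284.1 CPM in Cre_positive libraries. The Cre_positive libraries lay within the Cre_negative range, with a log2 fold change of 0.11 (SE 0.098) and an interval of 0.923 to 1.25-fold (adjusted p = 0.575).

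Slc12a3 (ENSMUSG00000031766, chromosome 8), the main salt transporter of the distal convoluted tubule, stood at 1109, 1265 and 1408 CPM in Cre_negative and at 1821, 1816 and 2028 CPM in Cre_positive replicates 1, 2 and 3. All Cre_positive libraries were above all Cre_negative ones. The means were 1261 ± 150 and 1888 ± 121 CPM (SD, n = 3). This is 0.58 on the log2 scale (SE 0.11), or 1.498-fold with an interval of 1.26 to 1.78 (adjusted p = 0.0158). The size of the difference changed little when libraries were left out (0.50 to 0.67), but the call ended without Cre_positive replicate 1, 2 or 3 (adjusted p of 0.0530, 0.0597 and 0.0851).

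Pvalb (ENSMUSG00000005716, chromosome 15) encodes parvalbumin, a calcium-buffering protein of the early distal convoluted tubule. It stood at 3.54, 4.47 and 19.5 CPM in Cre_negative and at 10.3, 13.97 and 14.2 CPM in Cre_positive replicates 1, 2 and 3. Cre_negative replicate 3 was the highest of all 6 and replicates 1 and 2 were the lowest, so the genotypes overlapped through 1 library. The coefficient of variation within Cre_negative was 97.8%, the widest of the 9 genes, against 17.1% within Cre_positive. The log2 fold change was 0.48 (SE 0.70, 95% confidence interval -1.28 to 2.24, adjusted p = 0.745), and without Cre_negative replicate 3 it was 1.68 (adjusted p = 0.00404).

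Trpm6 (ENSMUSG00000024727, chromosome 19), the magnesium channel gene, stood at 23.6, 25.6 and 21.5 CPM in Cre_negative and at 17.2, 25.5 and 23.9 CPM in Cre_positive replicates 1, 2 and 3. Cre_positive replicate 1 was the lowest and the other libraries overlapped. The log2 fold change was -0.085 (SE 0.15, 0.745 to 1.19-fold, adjusted p = 0.786). The 3 genes of the distal convoluted tubule among the 9 therefore gave 1 rise and 2 genes that did not pass.

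None of the 3 kinase genes of the WNK pathway passed. Wnk4 (ENSMUSG00000035112, chromosome 11) stood at 235.4, 253.4 and 253.8 CPM in Cre_negative and at 289.0, 302.3 and 279.0 CPM in Cre_positive replicates 1, 2 and 3. The genotypes did not overlap, but the log2 fold change of 0.23 (SE 0.073, 1.05 to 1.31-fold) did not pass (adjusted p = 0.0957). It passed with DESeq2 (adjusted p = 0.0274), and its adjusted p was between 0.0857 and 0.277 with single libraries left out.

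Wnk1 (ENSMUSG00000045962, chromosome 6) stood at 529.9, 523.2 and 551.8 CPM in Cre_negative and at 551.9, 475.2 and 532.1 CPM in Cre_positive libraries. These ranges overlapped, with a log2 fold change of -0.042 (SE 0.084, 0.852 to 1.11-fold, adjusted p = 0.816). The gene makes a full-length kinase in many tissues and, in the distal convoluted tubule, a shorter kidney-specific form without the kinase domain. The gene-level count sums both, so a shift between them was not measured. Stk39 (ENSMUSG00000027030, chromosome 2), the gene of SPAK, stood at 45.9, 50.6 and 41.4 CPM in Cre_negative and at 46.2, 48.1 and 41.5 CPM in Cre_positive libraries. Its ranges overlapped almost fully, with a log2 fold change of -0.023 (SE 0.096, 0.846 to 1.15-fold, adjusted p = 0.918).

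**Figure D2:**
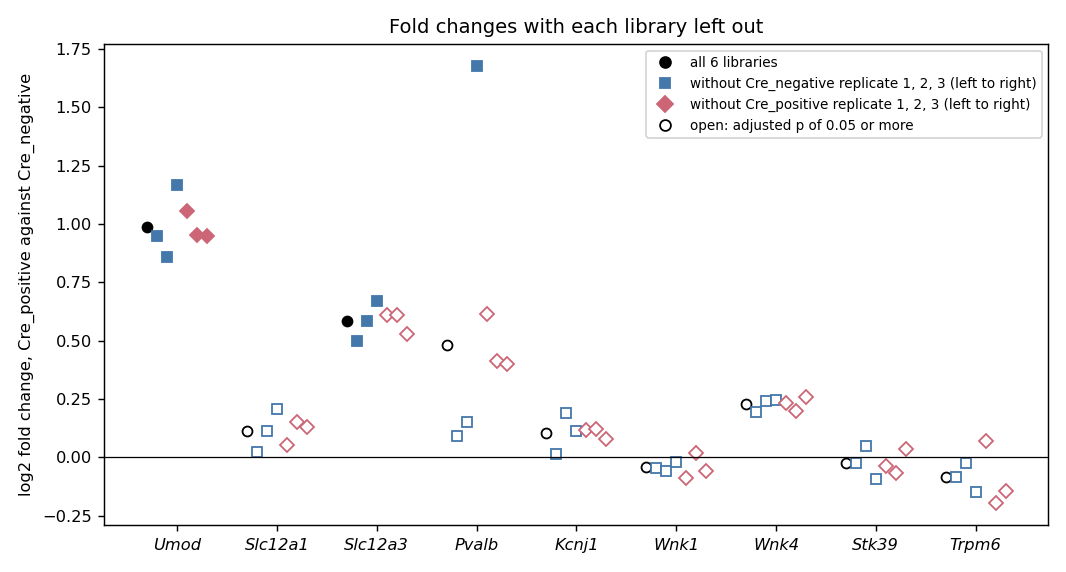
Log2 fold change of Cre_positive against Cre_negative (y axis) for the 9 genes with all libraries (black) and with each library left out (squares, Cre_negative; diamonds, Cre_positive), filled where the adjusted p was below 0.05. Umod is filled throughout, Slc12a3 turns open without any 1 of the Cre_positive libraries, and Pvalb moves to 1.68 without Cre_negative replicate 3.

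Whether these genes moved by unequal amounts, within and between the segments, was asked with 7 ratios of CPM within a library. Such ratios do not depend on how libraries are scaled. Because the genes differ in length, the levels of the ratios have no meaning of their own. Levels are given, on the log2 scale, only to compare the genotypes. The ratio of Umod to Slc12a1 was higher in Cre_positive by 0.89, from 0.47 ± 0.24 to 1.36 ± 0.22 (SD, n = 3). The ratio of Slc12a3 to Slc12a1 was nearly constant within Cre_negative, at -0.50, -0.51 and -0.52, and stood at -0.21, -0.018 and 0.10 in Cre_positive replicates 1, 2 and 3, a difference of 0.47. Both ratios lay apart between the genotypes. The ratio of Kcnj1 to Slc12a1 did not, with means of -2.82 in each genotype.

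Of the ratios to Slc12a3, 3 were lower in every Cre_positive library than in any Cre_negative one. The difference was -0.69 for Trpm6, -0.36 for Wnk4 and -0.61 for Stk39. These 3 ratios share Slc12a3, itself higher by 0.58, so they are not separate from its rise. By their own CPM, Wnk4 differed by 0.23, Trpm6 by -0.085 and Stk39 by -0.023, and none was called. The ratio of Pvalb to Slc12a3 overlapped, with a difference of 0.31. The 5 ratios that lay apart each had p = 0.1 in a two-sided exact permutation test, which is the smallest p that 3 against 3 libraries allow, and 0.14 after Benjamini-Hochberg adjustment over the 7. This test therefore cannot reach 0.05 in this design.

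**Figure D3:**
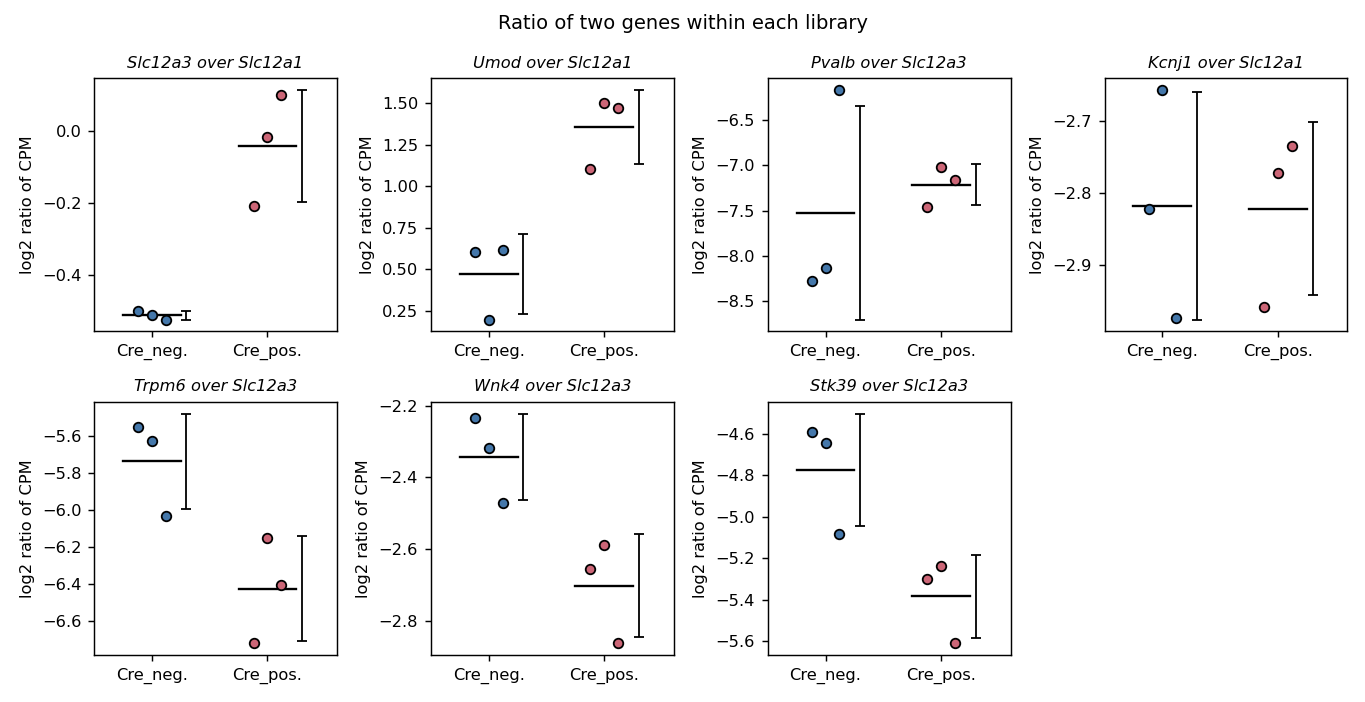
Log2 ratio of the CPM of 2 genes within each library (y axis, a separate range in each panel), with points for libraries, lines at the mean of 3 and bars of 1 SD. The ratios of Slc12a3 and of Umod to Slc12a1 are higher in all Cre_positive libraries, those of Trpm6, Wnk4 and Stk39 to Slc12a3 are lower, and those of Kcnj1 to Slc12a1 and of Pvalb to Slc12a3 overlap.

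Per kilobase of annotated exon, Umod was the most abundant of the 9, at 911 ± 193 CPM per kilobase in Cre_negative and 1804 ± 149 in Cre_positive (SD, n = 3). Slc12a1 followed with means of 312 and 337, Slc12a3 with 113 and 170, Kcnj1 with 76.6 and 82.4, Wnk4 with 59.7 and 69.9 and Wnk1 with 23.4 and 22.8. Pvalb (8.83 and 12.3), Stk39 (9.28 and 9.13) and Trpm6 (3.05 and 2.87) were the lowest. Neighbours in this order did not overlap over the libraries of a genotype, except Pvalb and Stk39 in Cre_negative. The place of Slc12a3 rests on the length used: its annotated exons cover 11119 bases and its longest transcript 4310. Per kilobase of longest transcript, the Cre_positive libraries ranged from 421 to 471 for Slc12a3 and from 388 to 443 for Slc12a1, so these neighbours then overlapped.

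Across the 6 libraries, the log2 CPM of Umod and Slc12a3 had a Pearson r of 0.95, and Wnk4 followed them at 0.88 and 0.90. Stk39, Wnk1 and Trpm6 had negative values with Umod, at -0.37, -0.26 and -0.25. The points share their genotype and library scaling, so these are descriptions. Among 12783 genes with an assigned symbol and an average log2 CPM of at least 1, those nearest to Umod were Bcl6b (r = 0.999) and Irak2 (0.995). Those nearest to Slc12a3 were Hykk (0.999), Rgs3 (0.997) and Nap1l5 (0.996).

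Other genes of the thick ascending limb and of the macula densa, its sensing plaque beside the glomerulus, were also split. Of 16 such genes, 4 passed as higher, none as lower and 12 not at all, with a median log2 fold change of -0.0073. Without Cre_positive replicate 2 or 3 the count of higher genes was 2. Of all genes tested, 3.73% passed as higher and 3.82% as lower. The genotypes lay apart for 4 of the 16 as higher and 2 as lower, beside 15.2% and 14.5% of all genes tested. Ptger3, the prostaglandin E2 receptor EP3, went from 44.2 ± 1.45 to 92.2 ± 4.23 CPM (SD, n = 3), or 1.06 higher on the log2 scale (SE 0.069, adjusted p = 0.000134). Casr, the calcium-sensing receptor that restrains salt uptake there, went from 41.8 ± 2.49 to 73.2 ± 2.40 CPM, or 0.81 higher (SE 0.074, adjusted p = 0.000697). Both held with each library left out. Egf, the precursor of epidermal growth factor made by the thick ascending limb and distal convoluted tubule, stood at 875, 1093 and 1618 CPM in Cre_negative and at 2394, 2539 and 2784 CPM in Cre_positive libraries. Its log2 fold change was 1.11 (SE 0.21, adjusted p = 0.0217), and without Cre_negative replicate 2, or without any 1 Cre_positive library, the call ended (at most 0.0858).

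Bsnd encodes barttin, a chloride channel subunit, and was higher by 0.43 on the log2 scale (SE 0.084, adjusted p = 0.0187). Its call ended without Cre_positive replicate 2 or 3 (0.0626 and 0.0557). The claudins of paracellular calcium and magnesium uptake did not pass, with Cldn16 at -0.51 (SE 0.17, adjusted p = 0.112) and Cldn19 at 0.20 (SE 0.11, adjusted p = 0.294). Cldn16 was lower in Cre_positive without overlap, at 8.70 to 10.0 against 11.5 to 17.0 CPM, and it passed as lower with DESeq2 (adjusted p = 0.0448). Irx1 and Pou3f3, transcription factors of the segment, stood at -0.047 (SE 0.11) and -0.038 (SE 0.091) and did not pass. These claudins and factors were picked after their values were seen.

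Other genes of the distal convoluted tubule and of magnesium and calcium handling went both ways: 2 of 16 rose, 2 fell and 12 did not pass, with a median of 0.086. The count of lower genes was 0 without Cre_negative replicate 1 or 2 or Cre_positive replicate 2 or 3, 1 without Cre_positive replicate 1 and 4 without Cre_negative replicate 3. The count of higher genes was 0 without Cre_positive replicate 1 or 3 and 1 without any 1 of the Cre_negative libraries. Over all genes tested, 3.73% passed as higher and 3.82% as lower. The genotypes lay apart for 4 of the 16 as higher and 3 as lower, beside 15.2% and 14.5% of all genes tested. Kl, which encodes the FGF23 co-receptor klotho, went from 529.8 ± 16.4 to 744.1 ± 56.3 CPM (SD, n = 3), or 0.49 higher on the log2 scale (SE 0.085, adjusted p = 0.0122). Calb1, the calcium-binding calbindin of the late distal convoluted and connecting tubule, differed by 0.50 on the log2 scale (SE 0.12, adjusted p = 0.0355). Tfap2b, a transcription factor of the distal nephron, fell by 0.49 (SE 0.11, adjusted p = 0.0297). Atp1b1, the beta subunit of the sodium pump, fell by 0.48 (SE 0.11, adjusted p = 0.0314). Kl lost its call when Cre_positive replicate 1 or 3 was left out (at most 0.0716), Calb1 and Atp1b1 each without 5 of the 6 libraries (up to 0.115 and 0.133) and Tfap2b without Cre_negative replicate 1 or 2 or Cre_positive replicate 2 or 3 (0.0667, 0.0852, 0.117 and 0.131). Only Cre_negative replicate 3 could be left out with the call of Atp1b1 kept, and only Cre_positive replicate 2 with that of Calb1. The pump is also abundant in the proximal tubule, so its change cannot be assigned to a segment. Nme7, which overlaps Atp1b1 on the opposite strand, had 840 to 1062 counts.

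Of 14 other genes of WNK and SPAK control, Klhl3 alone passed as higher, none as lower and 13 not at all, with a median of 0.071. Over all genes tested, 3.73% passed as higher and 3.82% as lower. The genotypes lay apart for 4 of the 14 as higher and 1 as lower, beside 15.2% and 14.5% of all genes tested. Klhl3 encodes the adaptor through which a cullin ligase degrades WNK kinases. It stood at 49.2, 69.0 and 61.9 CPM in Cre_negative and at 83.0, 88.8 and 82.4 CPM in Cre_positive libraries, without overlap. Its log2 fold change was 0.50 (SE 0.12, adjusted p = 0.0367), and without Cre_negative replicate 3, or without any 1 Cre_positive library, the call ended (at most 0.130). Cul3, the cullin that works with it, stood at -0.17 on the log2 scale (SE 0.073, adjusted p = 0.196), and Oxsr1, the kinase most like SPAK, -0.12 (SE 0.073, adjusted p = 0.375). Neither passed, though Cul3 was lower in Cre_positive without overlap (108.3 to 123.9 against 125.8 to 135.4 CPM). Both were picked after their values were seen.

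**Figure D4:**
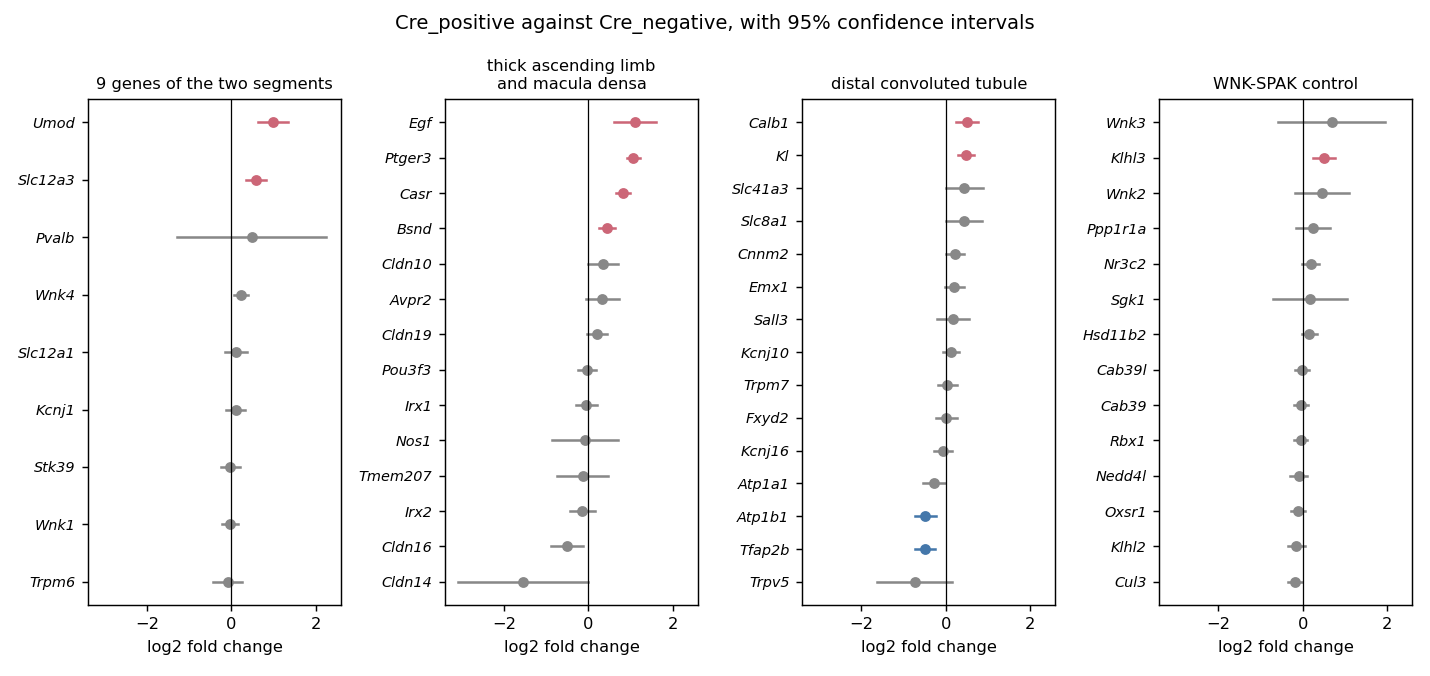
Log2 fold change of Cre_positive against Cre_negative (x axis) with 95% confidence intervals for the 9 genes and for genes of the 3 related lists, coloured where the adjusted p was below 0.05 (red, higher; blue, lower). Coloured points number 2, 4, 4 and 1 from left to right, and a few list genes that did not pass are not drawn.

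Summed markers of some other cell types were also higher in Cre_positive, and those of others overlapped between the genotypes. The counts of markers called stand beside 3.73% of all genes tested that passed as higher. The summed level of 7 proximal tubule markers was 6321 to 7249 CPM in Cre_negative and 9942 to 10981 CPM in Cre_positive libraries, with 5 of 7 markers called higher and none at 0 in any library. Summed podocyte markers ranged from 443 to 513 CPM in Cre_negative and from 629 to 725 in Cre_positive, with 2 of 6 called higher. Intercalated cell markers (234 to 286 against 350 to 421 CPM, 3 of 5 called higher), endothelial markers (216 to 233 against 342 to 358 CPM, 4 of 4) and mesangial markers (104 to 122 against 166 to 182 CPM, 2 of 3) were also apart. Erythrocyte markers had the highest ratio of any list, 2.74 times, but overlapped (58.3 to 168 against 166 to 458 CPM, 0 of 4 called). Principal cell, macula densa and macrophage markers also overlapped, at 0.764 to 0.844 times the Cre_negative mean. The 5 markers of the thick ascending limb summed to 1.56 times the Cre_negative mean, with 1 of 5 (Umod) called higher, beside 1.53 times for the proximal tubule. Without Umod, a sum added after the data were seen, the other 4 came to 1941, 2250 and 2503 CPM in Cre_negative and 2578, 2334 and 2396 CPM in Cre_positive libraries, 1.09 times and overlapping. The 4 markers of the distal convoluted tubule summed to 1.47 times, with 2 of 4 (Slc12a3 and Calb1) called higher. Without Slc12a3 the other 3 came to 413, 428 and 373 CPM against 635, 501 and 552 CPM, 1.39 times and without overlap, most of it Calb1.

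Divided by the summed proximal tubule markers of the same library, Umod overlapped between the genotypes, at 377, 285 and 463 CPM per 1000 CPM of those markers in Cre_negative and 450, 523 and 478 in Cre_positive libraries. Slc12a3 stood at 175, 175 and 210 and at 182, 183 and 185 on that scale, and Slc12a1 was lower in Cre_positive, at 248, 249 and 302 against 210, 185 and 172. Kcnj1, Wnk1, Wnk4, Stk39 and Trpm6 were lower too, without overlap, and Pvalb overlapped. The divisor itself was 1.53 times the Cre_negative mean and lay apart, so a gene with unchanged CPM comes out lower on this scale. How many of all genes tested lie apart on it was not computed. The part of these other cell types in the results was not tested.

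**Figure D5:**
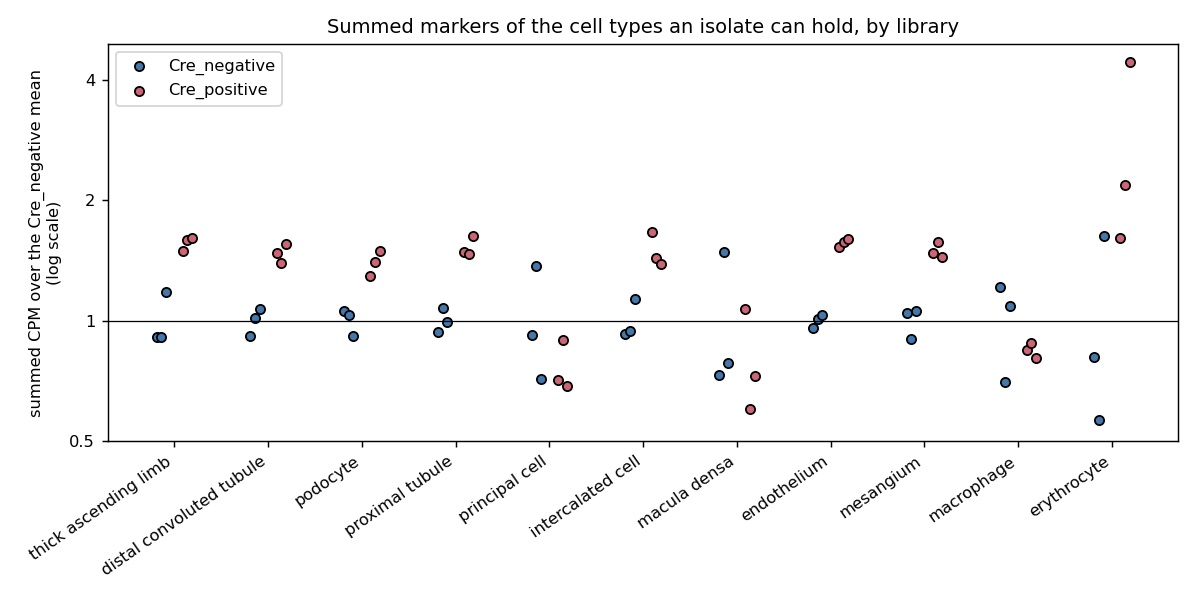
Summed CPM of each marker list in each library, divided by the mean of the 3 Cre_negative libraries (y axis, log scale). The Cre_positive libraries lie above the Cre_negative ones for podocyte, proximal tubule, intercalated cell, endothelial and mesangial markers, for the distal convoluted tubule and, only with Umod in the sum, for the thick ascending limb.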

How the data were processed

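RNA was measured in isolated glomeruli of 6 samples, 3 per genotype. The authors deposited whole-number read counts per Ensembl gene, and fastp, HISAT2, StringTie, edgeR and GRCm39 appear in the submitters' processing notes without versions, roles or order. Per the labels' protocols the libraries were polyadenylated, strand-marked with dUTP and read in pairs. The sources used here do not give the annotation release, the strand setting of the counting or how reads with several matches were treated. Antisense or overlapping genes of Umod, Slc12a1, Wnk1 and Wnk4 had at most 74 counts in any library.

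Symbols came from a table of Ensembl identifiers (51880 of 57132 rows matched). Counts were analysed with R 4.3.3 and edgeR 4.0.16: filterByExpr, TMM factors (0.979 to 1.03), and the robust quasi-likelihood test, adjusted by Benjamini-Hochberg over 19927 genes (threshold 0.05). A standard error is the log2 fold change over the square root of F, and intervals are at 95%. Levels are CPM scaled by TMM. The root of the common dispersion was 21.5%. Log2 CPM for ratios and correlations used a prior count of 2. Lengths are from GENCODE M21 (GRCm38). Every pair of libraries differed by more than sampling noise (chi-square per degree of freedom at least 20.6 over genes with 50 counts or more).

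The genes, lists, ratios and tests were chosen with earlier results of these data known. Named were all 9 genes, up to 4 genes per list by smallest p among those passing, Setdb2, Xist, and the 3 genes most correlated with Umod and with Slc12a3. Some list genes, a neighbour of Umod and a searched motif are not reported here. Other settings were DESeq2 1.42.0, limma 3.58.1 (voom), other scalings, filters, a replicate block and each library left out. A search of protein sequences for kinase docking motifs was not run here.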

Additional observations from a re-analysis of the deposited data

How the results depend on the processing

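Over 14 other settings Umod, Ptger3 and Casr kept their calls, and the log2 fold change of Umod ranged from 0.86 to 1.17. The number of genes called was 1505, with DESeq2 2697 and with single libraries left out 462 to 2039. With a library left out, the number of the 9 genes called higher ranged from 1 to 3, of the thick ascending limb list from 2 to 5 higher and 0 to 1 lower, of the distal convoluted tubule list from 0 to 2 higher and 0 to 4 lower, and of the WNK list from 0 to 1 higher. Among thick ascending limb genes, DESeq2 called 2 lower, limma voom 1 and the replicate block 1.

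Log2 fold changes near 0 changed sign with a library left out: Stk39 ranged from -0.092 to 0.048, Trpm6 from -0.20 to 0.069 and Wnk1 from -0.086 to 0.019. So did the log2 ratios of Pvalb to Slc12a3 (-0.063 to 0.99) and of Kcnj1 to Slc12a1 (-0.082 to 0.076). Relative to the summed proximal tubule markers, a setting chosen after seeing the data, the log2 difference was 0.39 for Umod and reversed for Slc12a1 (-0.49), Slc12a3 (-0.022), Kcnj1 (-0.50) and Wnk4 (-0.38). Those markers were themselves higher in Cre_positive, so the difference of every gene is lower on this scale. The cause of these differences was not tested.

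Same-numbered libraries of the genotypes had correlated deviations of only 0.0173 to 0.0551, so the numbers were not taken to pair them, although every library correlated best with its own number. With the replicate block 1541 genes were called, and the same 2 of the 9. Pvalb, the most variable of the 9 within Cre_negative, had counts of 215 to 1100.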
